A study of Rattus norvegicus with 6 samples.

Results

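The genes described here are Ciita, the master regulator of major histocompatibility complex (MHC) class II transcription, Cd74, the invariant chain, and 6 rat class II chains: RT1-Ba, RT1-Bb, RT1-Da, RT1-Db1, RT1-DMa and RT1-DMb. They are the 8 rows of these names among the 37203 genes of the deposited count table. All 8 passed the filter on low counts that left 16066 genes for testing. The set was chosen by name and function, but with earlier case minus control values of these same 6 libraries known, so its values are a description, and nothing is supported by the calls of the test.

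RNA was sequenced from alveolar tissue, the tooth-bearing bone of the jaw, of rats in which teeth were moved orthodontically. The study compared movement with corticision, a surgical incision through cortical bone, and movement alone. The 3 libraries titled case (5, 6 and 9) carry the source label without corticision, and the 3 titled control (5, 6 and 10) the label with corticision. The titles and the source labels point opposite ways in their usual sense, so the groups keep their titles here, and case minus control is the direction of all differences. All 6 libraries share the tooth movement, and the labels give no strain, age or time. Whether each library stands for its own animal is not stated, so p-values measure only the spread between these libraries, which may be technical.

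MHC class II molecules are pairs of an alpha and a beta chain that show peptides from ingested protein to CD4+ T cells. B cells, dendritic cells and many macrophages carry them. New pairs bind the invariant chain Cd74, which blocks their groove and guides them to endosomes, where proteases cut it down to a short fragment. The DM pair then exchanges this fragment for peptide, and the DO pair restrains DM. In the rat the RT1-B pair corresponds to human HLA-DQ and the RT1-D pair to HLA-DR. Ciita binds no DNA itself: it docks on a complex of RFX, CREB and NF-Y proteins that sits on the X and Y boxes of class II promoters. It is transcribed from several promoters, one used in B cells and one that answers to interferon gamma, which the counts per gene do not separate.

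The X and Y boxes could be read in the promoters that RefSeq gives for these genes (assembly GRCr8), which held 6 of the 8 members. Those stretches are shown because they are the docking ground through which Ciita reaches its targets. Each is read 5′ to 3′ on the gene's own strand and ends before the annotated start site. The first capitals mark the core GNNAC of an X-like box, and the second the Y box core ATTGG, which stands as its reverse complement CCAAT in Cd74.
Cd74: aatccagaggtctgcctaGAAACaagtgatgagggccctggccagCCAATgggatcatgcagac
RT1-Ba: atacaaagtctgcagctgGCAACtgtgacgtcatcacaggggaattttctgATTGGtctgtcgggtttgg
RT1-Bb: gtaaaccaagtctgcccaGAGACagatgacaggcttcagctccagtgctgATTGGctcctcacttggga
RT1-Da: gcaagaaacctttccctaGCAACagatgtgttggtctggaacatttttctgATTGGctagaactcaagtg
RT1-Db1: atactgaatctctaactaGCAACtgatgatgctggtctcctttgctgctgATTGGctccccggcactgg
RT1-DMa: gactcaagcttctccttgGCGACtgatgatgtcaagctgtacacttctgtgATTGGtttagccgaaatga
These stretches lie at chr18:56526972-56527035 (+) for Cd74, chr20:4576963-4577032 (+) for RT1-Ba and chr20:4604161-4604229 (-) for RT1-Bb. Those of RT1-Da, RT1-Db1 and RT1-DMa lie at chr20:4515315-4515384 (+), chr20:4560224-4560292 (-) and chr20:4712381-4712450 (-). Ciita, on chromosome 10, and RT1-DMb are named only.

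The spacing of the boxes was nearly the same in the 5 chains. The cores shown were picked to stand 20 to 40 bases apart from start to start. In the chains only a Y box core preceded by TG was taken, and in Cd74 the reverse complement CCAAT. Where several X-like cores remained, those followed by letters like GNNACNGATG were preferred. Part of this likeness, in spacing and in letters, is thus built in. From the start of the X-like core to the start of the Y box core there were 33 bases in RT1-Ba, RT1-Da and RT1-DMa, 32 in RT1-Bb and RT1-Db1, and 27 in Cd74. In the 5 chains the Y box core began between 43 (RT1-Ba) and 80 bases (RT1-Db1) before the start site, and in Cd74 189 bases before it. The motifs were written down after these promoters had been read, and were then searched in all 33469 promoters of 250 bases before to 50 after a start site, on both strands. The Y box core ATTGG alone was found in 37.5% of them and in 6 of 6 members. The longer TGATTGG, which contains it, was found in 7.06% and in 5 of 6 members (all but Cd74). The longer X-like box GNNACNGATG was found in 2.84% and in 4 of 6 (RT1-Bb, RT1-Da, RT1-Db1 and RT1-DMa). Both longer motifs stood together on the gene's strand in 25 promoters, 0.0747% of all, and these 4 members were among them. A looser search, for GNNAC followed by ATTGG with 20 to 40 bases from start to start, found 11.2% of promoters and the 5 chains. A match describes letters in a window and is not evidence of binding.

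**Figure D1:**
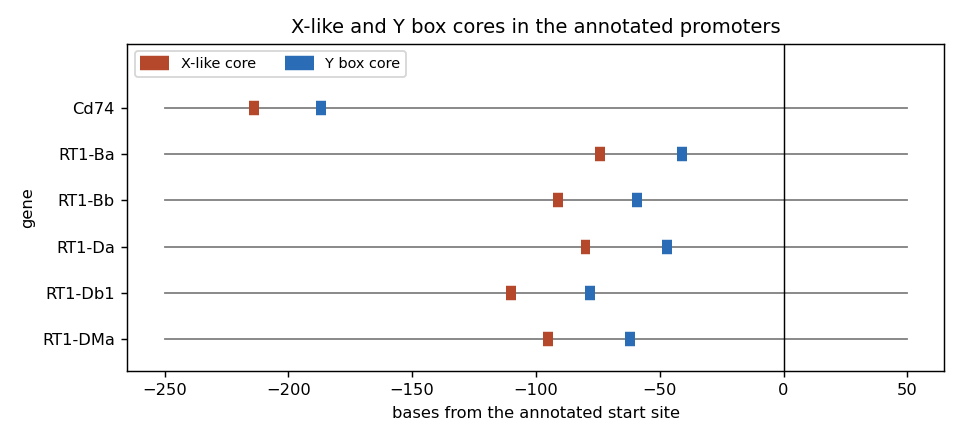
Position of the X-like core (red) and the Y box core (blue) in the 6 annotated promoters, in bases from the annotated start site (vertical line at 0); each grey line is the window searched. In the 5 chains the cores lie 32 or 33 bases apart and within 112 bases of the start, while those of Cd74 begin 216 and 189 bases before it.

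Levels are in CPM, counts per 1000000 counts of a library total scaled by TMM (trimmed mean of M-values). The totals lay between 10886303 and 14433740 counts, and where a gene has a count of 0, up to 3 counts (0.199 to 0.273 CPM) remain possible from counting error. The libraries numbered 5 stood apart from the others: the first principal component, 42.3% of the variance, placed case 5 at -34.9 and control 5 at -77.2 and the other 4 between 24.9 and 30.7. Control 5 also held keratin transcripts of oral epithelium (summed level of 5 marker genes 3328 CPM, against 9.75 to 34.0 CPM elsewhere) and few of skeletal muscle (8.21 CPM, against 77.7 to 943 CPM). The tissue label fitted the bone markers, Col1a1 being at 35945 to 74554 CPM. Results are therefore given for all 6 libraries, then within each kind of library.

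Ciita was the member whose groups lay apart. It stood at 30.0, 45.8 and 62.8 CPM in case 5, 6 and 9 (377, 691 and 749 counts) and at 22.1, 21.1 and 15.5 CPM in control 5, 6 and 10 (253, 269 and 170 counts). Every case library lay above every control library, and the controls lay closer together than the cases. The case mean was 46.2 ± 16.4 CPM and the control mean 19.6 ± 3.56 CPM (SD, n = 3 per group, as for all means below). The fitted log2 fold change was 1.24 (SE 0.29), or 2.36-fold. Groups lay apart in this direction for 1 of the 8 members, beside 4.05% of all tested genes.

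Ciita did not pass the test over all genes. The quasi-likelihood test of edgeR called 0 of the 8 members, beside 0% of the 16066 tested genes, at a Benjamini-Hochberg adjusted p under 0.05, and Ciita ranked 27 by its unadjusted p of 0.003. Its adjusted p was 0.999, while the smallest in the table was 0.879. At an unadjusted p under 0.05, 1 of the 8 members (Ciita) was found, beside 4.15% of all tested genes. DESeq2 on the same genes called 11 genes higher in case, 0.0686% of those it gave an adjusted p, and Ciita was among them with an adjusted p of 0.0426. Without a filter on low counts it again called Ciita, beside 0.0886% of genes, and limma-voom called 0 genes. Over all alternatives the adjusted p of Ciita ran from 0.0384 to over 0.999, and its fold change was positive in 18 of 18.

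The direction of Ciita was the same within each kind of library. Between the 2 libraries numbered 5, case exceeded control 1.36-fold, and between those numbered 6 2.17-fold. Among the 4 libraries other than those numbered 5, case lay at 45.8 and 62.8 CPM and control at 15.5 and 21.1 CPM. Leaving out 1 library at a time gave log2 fold changes from 0.96 (without case 9) to 1.50 (without case 5), and leaving out both libraries numbered 5 gave 1.61.

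Cd74, the invariant chain, overlapped between the groups. It stood at 939, 1688 and 2529 CPM in case 5, 6 and 9 and at 1133, 1621 and 873 CPM in control 5, 6 and 10. Case 9 was the highest library and control 10 the lowest, with case 5 next to it. The means were 1719 ± 795 and 1209 ± 379.5 CPM, a log2 fold change of 0.51 (SE 0.40). The difference between the means was smaller than the SD of the case libraries and larger than that of the controls. In bulk tissue such a level cannot tell fewer cells of a type from less RNA per cell, here and for the genes below.

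The classical chains, which form the peptide-binding pairs on the cell surface, followed the same order of libraries as Cd74 with few exceptions. RT1-Ba, the alpha chain of the B pair, stood at 182, 343 and 526 CPM in case 5, 6 and 9 and at 216, 323 and 198 CPM in control 5, 6 and 10. RT1-Bb, its beta chain, stood at 119.6, 203 and 300.1 CPM in case and at 129.9, 152 and 80.0 CPM in control. In both genes case 9 was the highest library. Case 5 lay below all control libraries for RT1-Ba and inside the control range for RT1-Bb.

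RT1-Da, the alpha chain of the D pair, stood at 227, 380.4 and 678 CPM in case 5, 6 and 9 and at 272, 426 and 240.0 CPM in control 5, 6 and 10. RT1-Db1, its beta chain, stood at 139, 254 and 447 CPM in case and at 160.3, 268 and 145 CPM in control. Case 5 was the lowest library for both, and case 9 the highest. The log2 fold changes of the 4 classical chains were 0.51 (RT1-Ba, SE 0.38), 0.78 (RT1-Bb, SE 0.36), 0.45 (RT1-Da, SE 0.41) and 0.55 (RT1-Db1, SE 0.43), and the groups overlapped in each.

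The size of these differences depended on single libraries, and for all but RT1-Bb it fell near 0 without case 9. The fold change of RT1-Bb was positive in 18 of 18 alternatives, as was that of Ciita. Without case 9 the log2 fold change was 0.12 for Cd74, 0.097 for RT1-Ba, 0.42 for RT1-Bb, -0.043 for RT1-Da and 0.042 for RT1-Db1. Without case 5 it was 0.83, 0.85, 1.09, 0.79 and 0.90, without control 6 0.81, 0.79, 1.02, 0.77 and 0.90, and without control 10 0.35, 0.41, 0.59, 0.33 and 0.42. Without both libraries numbered 5 it was 0.80, 0.78, 1.16, 0.71 and 0.81. Within the libraries numbered 5, case was below control for these 5 genes (0.83-fold for Cd74 to 0.92-fold for RT1-Bb). Among the 4 other libraries, case 6 lay little above control 6 for Cd74 (1688 against 1621 CPM) and RT1-Ba (343 against 323 CPM). It lay further above control 6 for RT1-Bb (203 against 152 CPM), and below it for RT1-Da and RT1-Db1. So few libraries give a weak order, and the share of all genes with such an order was not taken.

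The DM pair, the peptide exchanger of the endosome, did not keep to this pattern. RT1-DMa, its alpha chain, stood at 6.06, 73.6 and 79.1 CPM in case 5, 6 and 9 (76, 1110 and 943 counts) and at 35.2, 24.7 and 12.7 CPM in control 5, 6 and 10 (403, 315 and 139 counts). Case held both the lowest library and the 2 highest, a 13.1-fold range. Its log2 fold change was 1.13 (SE 0.80), and was 1.69 without case 5, 1.50 without control 5, 0.72 without case 9 and 2.07 without both libraries numbered 5. RT1-DMb, the beta chain, stood at 25.9, 22.7 and 54.9 CPM in case and at 30.5, 30.9 and 29.7 CPM in control. Its control libraries were nearly alike, 2 case libraries lay below them and 1 above. Its log2 fold change of 0.18 (SE 0.33) was -0.32 without case 9, 0.38 without case 5 and 0.41 without case 6.

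**Figure D2:**
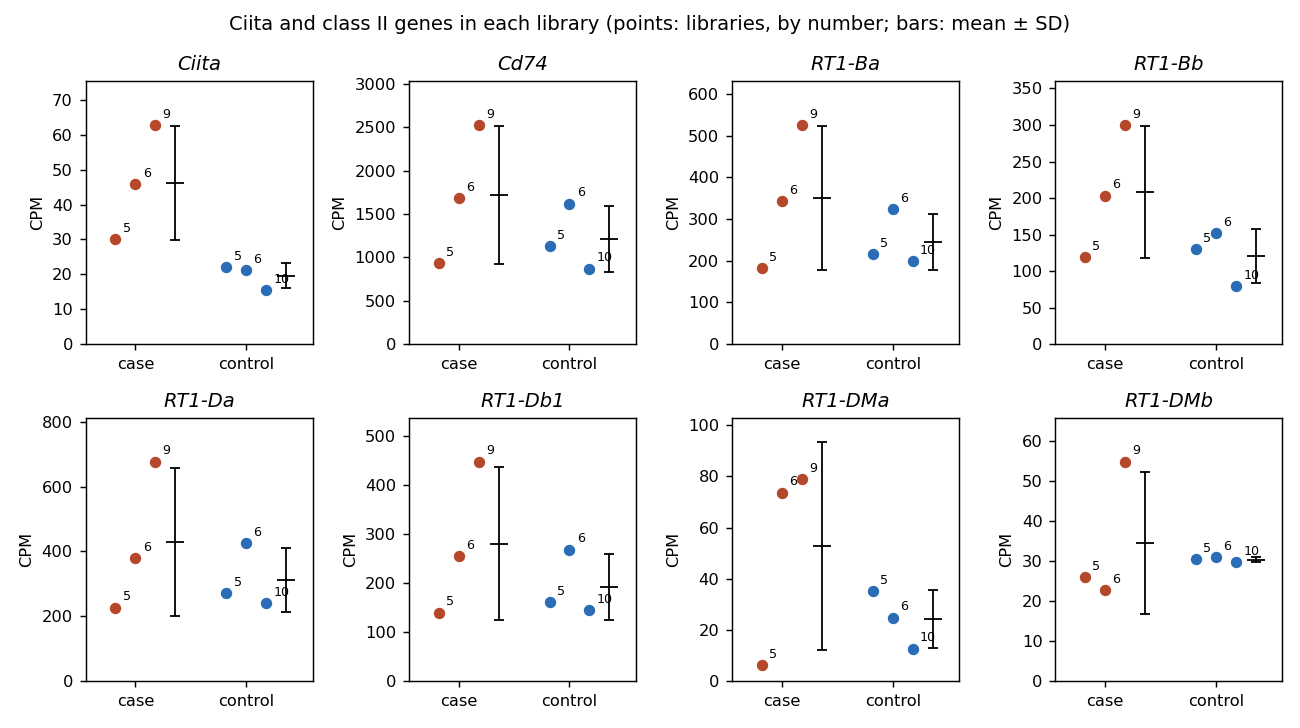
CPM of the 8 members (1 panel each, axes from 0) in the case (red) and control (blue) libraries, with the library number beside each point and the group mean ± SD in black. The 3 case libraries lie above the 3 control libraries for Ciita, at 30.0 to 62.8 against 15.5 to 22.1 CPM, and the groups overlap in the other 7 panels.

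Case 9 was the highest library for 8 of the 8 members. The lowest was case 5 for 4 of them, control 10 for 3 and case 6 for 1. All 8 had a positive log2 fold change under each scaling tried. With TMM scaling 46.3% of all tested genes were positive, and the median was 0.53 for the members beside -0.024 over all genes. Under the other scalings the median over all genes ran from -0.014 (upper quartile) to 0.026 (library totals), and the share of positive genes was not taken. Without case 9 the sign was positive in 6 of the 8 members. With the title number as a block, in the 4 libraries numbered 5 and 6, it was positive in 2 of the 8 members (Ciita and RT1-Bb). Their summed level was 1669, 3011 and 4677 CPM in case 5, 6 and 9 and 1999, 2866 and 1595 CPM in control 5, 6 and 10. The groups thus overlapped in the sum, whose mean was 3119 ± 1507 CPM in case and 2153 ± 649.5 CPM in control. Between 0.155% and 0.475% of a library's counts fell on these 8 genes.

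The classical chains and Cd74 kept to each other closely from library to library. Likeness was measured as the root mean square distance between 2 genes' log2 CPM over the 6 libraries, each taken relative to its own mean. It was 0.066 between RT1-Da and RT1-Db1, 0.080 to 0.084 between RT1-Ba and RT1-Da, Cd74 or RT1-Db1, 0.10 between Cd74 and RT1-Da and 0.11 between Cd74 and RT1-Db1. Other genes were compared where they averaged 5 CPM or more and had a name of their own. Of these 10759 genes, 0 lay closer to Cd74 than RT1-Ba, RT1-Da or RT1-Db1 did, and 4 lay closer than RT1-Bb (0.18). RT1-DMb lay at 0.43, with 1237 genes closer, Ciita at 0.43, with 1154 closer, and RT1-DMa at 0.91, with 10082 closer. The members also stand near each other in the genome: the 6 RT1 members fall within 13 consecutive annotated genes of chromosome 20, and RT1-DMa and RT1-DMb are immediate neighbours. Near-identical RT1 genes can share reads, so that part of the likeness of RT1-Db1 and other RT1 genes could come from counting, which was not tested.

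**Figure D3:**
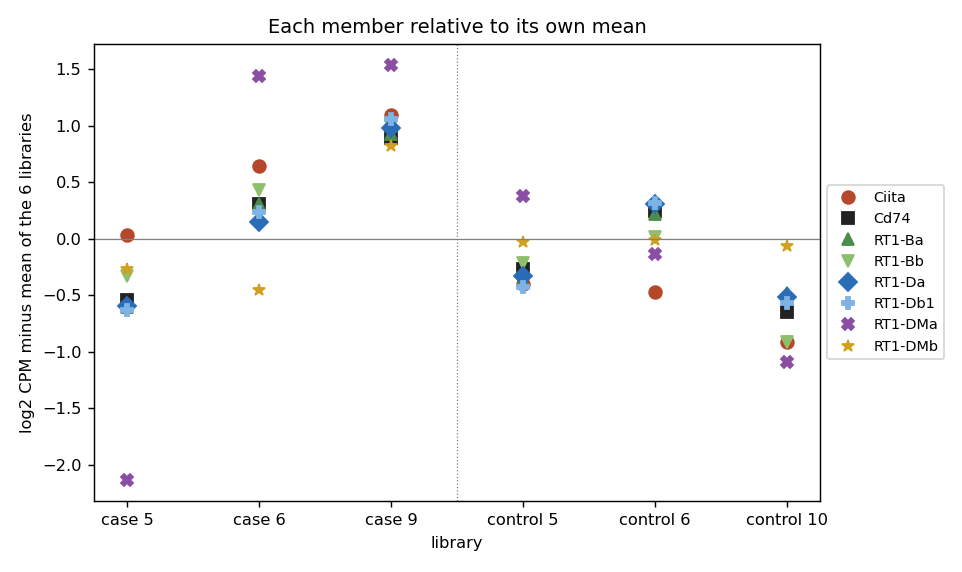
Log2 CPM of each member minus its own mean over the 6 libraries (y axis), by library (x axis; case left of the dotted line, control right). Cd74 and the classical chains RT1-Ba, RT1-Da and RT1-Db1 lie nearly on top of each other in every library, Ciita lies above them in the 3 case libraries, and RT1-DMa in case 5 lies farthest from 0.

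Ratios within a library, which no scaling changes, set Ciita apart by group. Per 100 counts of Cd74 case 5, 6 and 9 held 3.20, 2.72 and 2.48 counts of Ciita, and control 5, 6 and 10 held 1.95, 1.30 and 1.78. All case libraries lay above all control libraries, with means of 2.80 ± 0.364 and 1.68 ± 0.335. The ratio to Cd74 lay apart in this direction for 35 of 16065 tested genes, 0.218%. RT1-Bb was also among them, with 11.9 to 12.7 counts per 100 of Cd74 in the case libraries against 9.17 to 11.5 in the controls, a gap between the groups of less than 1 count. Per 100 counts of the 4 classical chains together, the counts of Ciita were 4.50, 3.88 and 3.22 (case) and 2.84, 1.81 and 2.34 (control).

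The ratio of Cd74 to the classical chains hardly moved. In case 5, 6 and 9 it was 1.41, 1.43 and 1.30, against 1.46, 1.39 and 1.32 for control 5, 6 and 10, a 1.12-fold range over libraries whose Cd74 level ranged 2.90-fold. The alpha to beta ratio of the D pair (RT1-Da to RT1-Db1) ranged 1.14-fold, from 1.50 to 1.70. That of the B pair (RT1-Ba to RT1-Bb) ranged 1.63-fold, from 1.52 in case 5 to 2.48 in control 10. The ratio of RT1-DMa to RT1-DMb in case 5, 6 and 9 was 0.234, 3.25 and 1.44, against 1.15, 0.799 and 0.426 for control 5, 6 and 10, a 13.9-fold range with no order by group. Hprt1, a housekeeping gene, also varied widely, with 118 and 71 counts in case 6 and 9, 1 in control 10 and 0 in the other 3 libraries. It did not pass the filter on low counts, and how many genes range this widely was not counted.

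**Figure D4:**
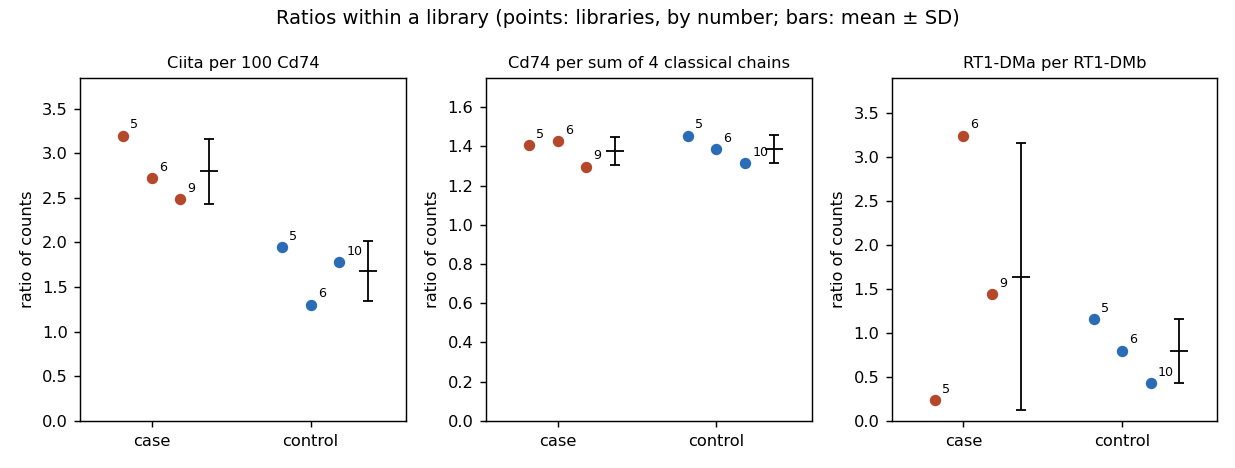
Ratios of counts within each library (axes from 0; library numbers beside the points, mean ± SD in black) for Ciita per 100 Cd74, Cd74 per sum of the 4 classical chains, and RT1-DMa per RT1-DMb. The case libraries lie above the control libraries for the ratio of Ciita to Cd74, the middle ratio stays between 1.30 and 1.46, and the DM ratio spans 0.234 to 3.25 within case alone.

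**Figure D5:**
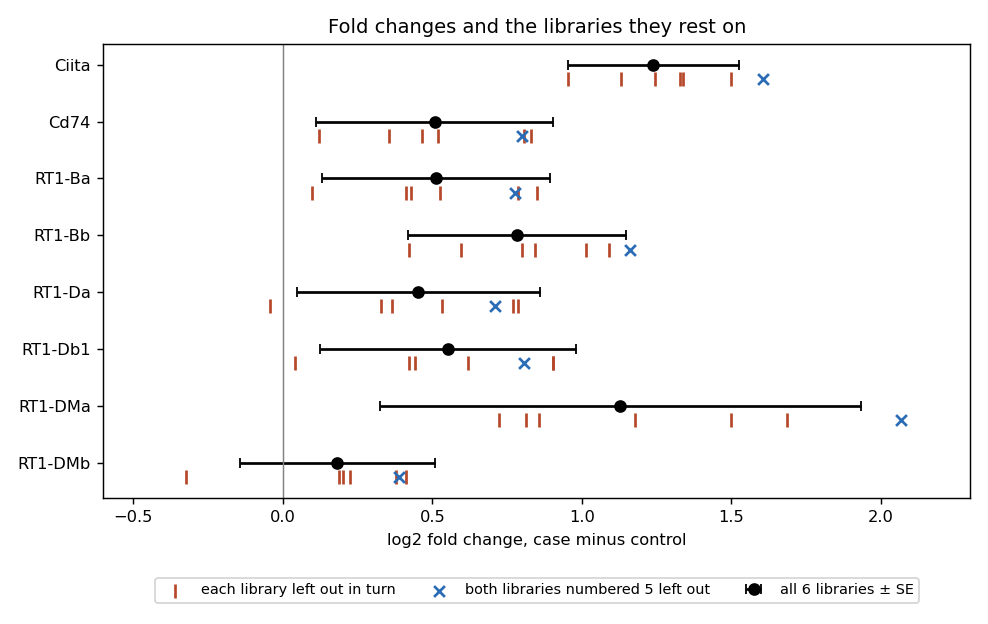
Log2 fold change, case minus control, of the 8 members with its SE (black), with the values after leaving out each library in turn (red ticks) and both libraries numbered 5 (blue crosses). Ciita stays between 0.96 and 1.61, while RT1-Da (-0.043) and RT1-DMb (-0.32) fall below 0 without case 9.

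Members aside, the 8 genes of the 10759 nearest to Ciita by the same distance were Ccdc69 (0.236), Cd38 (0.245), B4galnt1 (0.248), Zfp771 (0.249), Csf2ra (0.254), Siglec1 (0.264), Irf8 (0.277) and Jak3 (0.284). Cd38 is a surface enzyme of leukocytes, Csf2ra the receptor chain for GM-CSF, Siglec1 a macrophage adhesion receptor, Irf8 a factor of dendritic cells, monocytes and B cells, and Jak3 a kinase of cytokine receptors. Among the members RT1-Bb (0.28) was the nearest to Ciita, with 6 of these genes closer, ahead of Cd74 (0.43). Cd38, for example, stood at 13.1, 17.1 and 20.1 CPM in case 5, 6 and 9 and at 10.4, 11.5 and 6.75 CPM in control 5, 6 and 10.

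The genes most like Cd74, members aside, included 3 class I genes of the same complex: RT1-CE10 (0.149), RT1-CE4 (0.158) and RT1-A2 (0.187). The others were Prss57 (0.160), Lrg1 (0.182), Tifab (0.185), Elane (0.190) and Fxyd2 (0.203), of which Elane encodes the elastase of neutrophil precursors. With 6 libraries many genes lie near any pattern, and the distances describe these libraries only.

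Of the other class II chains, 3 could be tested. RT1-DOa, the alpha chain of the DM inhibitor, stood at 3.27, 17.2 and 9.98 CPM in case 5, 6 and 9 and at 3.93, 5.02 and 4.01 CPM in control 5, 6 and 10. RT1-DOb, its beta chain, stood at 4.14, 9.75 and 9.22 CPM in case and at 4.89, 3.14 and 3.37 CPM in control. In both genes case 6 and case 9 lay above the controls and case 5 did not. RT1-Db2, a near copy of RT1-Db1 with which it could share reads, stood at 8.91 to 30.0 CPM, highest in case 9. Their log2 fold changes were 1.23 (RT1-DOa, SE 0.54), 1.02 (RT1-DOb, SE 0.39) and 0.51 (RT1-Db2, SE 0.40), and 0 of 3 passed the test over all genes. Leaving out 1 library moved that of RT1-DOa to 0.61 (without case 6) and that of RT1-Db2 to 0.039 (without case 9). RT1-Ha was at or under 13 counts in every library.

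The proteins on which Ciita docks, and their chromatin partners, were read by the RNA of 14 genes. Of these, 8 had a positive fold change, beside 46.3% of all tested genes, and 6 a negative one. The number that passed was 0, beside 0% of all tested genes, and the median was 0.023. Separate groups were found for 0 of the 14. Over all 16066 tested genes they were found for 651 (higher in case) and 710 (lower in case). In so short a list 0 is near that share. Rfx5, the X box subunit, stood at 35.1, 27.1 and 26.9 CPM in case 5, 6 and 9 and at 35.5, 24.1 and 28.3 CPM in control 5, 6 and 10. Rfxank, its partner, ranged from 19.6 to 29.1 CPM, and Nfya, a Y box subunit, from 30.2 to 55.0 CPM. The libraries numbered 5 were the highest of each group for Rfx5 and Nfya and the lowest of each group for Rfxank.

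Of 13 tested genes of the interferon gamma route to Ciita, 9 were positive, beside 46.3% of all tested genes, and 4 negative. The number that passed was 0, and the median was 0.14. Groups lay apart, higher in case, for 2 genes, beside 4.05% of all tested genes. They were Irf2 (45.9 to 54.5 against 29.2 to 45.7 CPM) and Usf1 (74.5 to 76.2 against 61.3 to 69.1 CPM). Irf1, a factor that acts on the inducible Ciita promoter, stood at 64.7, 71.5 and 220.2 CPM in case 5, 6 and 9 and at 76.2, 104 and 81.7 CPM in control 5, 6 and 10. Case 9, the library with the most class II transcripts, thus stood well above the other 5 libraries in Irf1, while case 6 did not stand out. Ifng itself was too low to test, with at most 2 counts in a case library and 0 in each control library. Prdm1, which silences Ciita in plasma cells, stood at 12.9 to 16.7 CPM in case and 16.7 to 29.5 CPM in control, with groups that did not overlap but nearly touched. Groups lay apart in this direction, lower in case, for 710 of the 16066 tested genes.

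Of 13 tested genes that process antigen for class II, 5 were positive, beside 46.3% of all tested genes, and 8 negative. The number that passed was 0, beside 0% of all tested genes, and the median was -0.039. Separate groups were found for 0 of the 13, beside 651 (higher in case) and 710 (lower in case) of all 16066 tested genes. Here too 0 is near that share. Ctss, the protease that makes the last cut in Cd74, stood at 70.0, 167 and 238 CPM in case 5, 6 and 9 and at 65.0, 143 and 129 CPM in control 5, 6 and 10. Ifi30, the thiol reductase of the endosome, stood at 155, 254 and 307 CPM in case and at 165.5, 238 and 214 CPM in control. Both were highest in case 9 and low in both libraries numbered 5.

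Of 9 tested genes of costimulation and CD4 help, 7 were positive, beside 46.3% of all tested genes, and 2 negative. The number that passed was 0, and the median was 0.25. Groups lay apart, higher in case, for 2 of them, Cd40 and Cd28, beside 4.05% of all tested genes. Cd40, the receptor through which T cells license antigen-presenting cells, stood at 8.13, 10.7 and 11.3 CPM in case 5, 6 and 9 and at 7.25, 8.01 and 7.11 CPM in control 5, 6 and 10. Cd28, the costimulatory receptor of T cells, stood at 1.12 to 1.39 CPM in case (14 to 21 counts) and at 0.175 to 0.55 CPM in control (2 to 7 counts), with a log2 fold change of 1.72 (SE 0.52). Cd86, a ligand of Cd28, stood at 5.42 to 7.03 and 3.14 to 5.65 CPM, and Cd4 at 197 to 270 and 192 to 219 CPM. Cd4 is carried by macrophages as well as T cells in the rat.

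Class I genes, given for comparison, were positive in 10 of 10, beside 46.3% of all tested genes, with a median of 0.47, and 0 passed. Groups lay apart, higher in case, for 1 of them, RT1-CE1, a class I heavy chain, beside 4.05% of all tested genes. RT1-CE1 stood at 87.5, 92.5 and 118.6 CPM in case 5, 6 and 9 and at 76.0, 36.6 and 31.5 CPM in control 5, 6 and 10 (log2 fold change 1.05, SE 0.34). Nlrc5, the class I relative of Ciita, stood at 33.8, 27.0 and 55.0 CPM in case 5, 6 and 9 and at 29.9, 27.3 and 20.6 CPM in control 5, 6 and 10, so that its groups overlapped (log2 fold change 0.57, SE 0.29, and 0.23 without case 9).

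Markers of B cells, dendritic cells and macrophages, which carry class II, were mostly positive, and so were those of T cells. Of 10 B cell markers, 9 were positive, beside 46.3% of all tested genes, and 0 passed. Groups lay apart, higher in case, for 4 of them (Ms4a1, Cd22, Cr2 and Bank1), beside 4.05% of all tested genes. The summed level of the 10 markers was 295, 239 and 199 CPM in case 5, 6 and 9 and 217, 196 and 94.4 CPM in control 5, 6 and 10. Cd22, an inhibitory receptor of B cells, stood at 25.6, 39.1 and 23.0 CPM in case and at 14.2, 14.8 and 10.3 CPM in control (log2 fold change 1.15, SE 0.26). The B cell sum was highest in case 5, where Cd74 was the second lowest, and lowest in control 10, where Cd74 was lowest too. Blnk weighed much in this sum, at 90.0 CPM in case 5 against 35.6 and 43.0 CPM in case 6 and 9. Blnk, Cd79b, Pax5 and Cr2 were highest in case 5, and Ms4a1, Cd22 and Bank1 in case 6. The order of the sum is thus not that of every marker.

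Of 11 dendritic cell markers 9 could be tested, 7 of them positive, beside 46.3% of all tested genes, and 2 negative. Their summed level was 222, 346 and 342 CPM in case 5, 6 and 9 and 230 CPM or less in control, down to 189 CPM. Much of it was Irf8, also a factor of monocytes and B cells. Irf8 stood at 111, 183 and 195 CPM in case 5, 6 and 9 and at 116, 109 and 76.8 CPM in control 5, 6 and 10. The sum is thus a poor measure of dendritic cells. Flt3, the receptor that defines the list, stood at 13.9, 18.2 and 15.1 CPM in case and at 10.4, 11.7 and 13.3 CPM in control. It was the 1 tested dendritic marker whose groups lay apart, higher in case, beside 4.05% of all tested genes. Xcr1 of the cross-presenting type was under 1 CPM in every library. Of 10 macrophage markers 9 were in the table, and Marco was at 0 in all libraries. Among the 8 tested, 7 were positive, beside 46.3% of all tested genes, and 1 negative. The macrophage sum was 1197, 2050 and 1942 CPM in case and 1155, 1654 and 1461 CPM in control. Csf1r, the macrophage growth factor receptor, stood at 435 to 526 CPM in case and 400.5 to 464 CPM in control. Within case, the dendritic and macrophage sums were low in library 5 and high in 6 and 9, as were Cd74 and the classical chains. The controls did not follow in the dendritic sum, which was 215 CPM in control 6 and 346 CPM in case 6, while Cd74 was at 1621 and 1688 CPM there. Of 9 tested T cell markers 8 were positive, beside 46.3% of all tested genes, and 1 negative, with a median of 0.72. Separate groups, higher in case, were found for 1 of them (Cd28), beside 4.05% of all tested genes. The T cell sum was 276 to 383 CPM in case and 248 to 281 CPM in control. Most of it was Cd4 (197 to 270 CPM in case, 192 to 219 CPM in control), which rat macrophages also carry. The sum is thus a poor measure of T cells. The part of any of these cells in the class II values was not tested.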

How the data were processed

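The deposited table holds unnormalized counts, as whole numbers per gene symbol, for 6 libraries. These were made from total RNA with an Ion Total RNA-Seq kit and sequenced single-end, per the labels' protocols. The sources used here do not give the aligner, counting program, genome build, annotation or strand setting, so reads of near-identical RT1 genes and of overlapping genes could have been split or shared. Columns were matched to libraries, and libraries to groups, by title. Genes were filtered with filterByExpr, scaled by TMM and fitted in edgeR 4.0.16 (R 4.3.3), whose quasi-likelihood F test was run over all 16066 genes, with the group alone in the model and Benjamini-Hochberg adjustment at 0.05. Standard errors were derived from the fold change and the test statistic. Log2 CPM used a prior count of 2. The fit was tested on simulated data before use. Alternatives were other scalings and filters, DESeq2 1.42.0, limma-voom (limma 3.58.1), robust empirical Bayes, each library left out, and the title number as a block. Leaving out both libraries numbered 5, the number 5 as a covariate and DESeq2 without a filter were chosen after seeing the data.

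The members and the gene lists were chosen with earlier results of these data known. The rule for named genes took the 8 members, up to 6 of each list's most abundant members and its defining gene, and the 8 genes nearest to Ciita and to Cd74 that averaged 5 CPM or more and had no LOC, RGD or AABR name. Xcr1, Marco, Cr2, Bank1, Cd28, RT1-Ha, Prdm1, Irf2, Usf1, Rfxank, Nfya, Ifi30 and Hprt1 were named outside this rule, for their function or after their values were seen, and 2 genes that the rule names are not reported here. RefSeq names and promoters of GRCr8 were matched by symbol (8 and 6 of 8 members), and its coordinates are those of the sequences printed, not of the authors' build.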

Additional observations from a re-analysis of the deposited data

How the results depend on the processing

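The count of members called was 1 of 8 (Ciita) with DESeq2, filtered or not, and 0 in all other alternatives. Over all genes the count was 21 with DESeq2, 28 with DESeq2 without a filter, 0 to 2 with 1 library left out (2 without control 5) and 0 in the others. At an unadjusted p under 0.05, edgeR gave 666 genes. Of the listed genes 1 (Cd22, adjusted p 0.0464) was called with DESeq2 without a filter and 0 otherwise. The summed class II level had a log2 ratio of case to control of 0.53, which ranged from 0.12 to 0.86 with 1 library left out, and was 0.83 without both libraries numbered 5. Without case 9, RT1-Da was at -0.043 and RT1-DMb at -0.32, against 0.79 (without case 5) and 0.41 (without case 6) as the highest such values; the cause was not tested.

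The numbers 5 and 6 occur in both groups, and nothing in the labels says that they pair libraries. Deviations from the group means correlated at 0.38 across genes between the libraries numbered 5 and at 0.136 between those numbered 6. With the number as a replicate block in these 4 libraries, 0 genes were called, and the log2 fold change was 0.78 for Ciita, 0.15 for RT1-Bb, -0.11 for Cd74, -0.079 for RT1-Ba, -0.21 for RT1-Da, -0.14 for RT1-Db1, -0.39 for RT1-DMa and -0.34 for RT1-DMb. This fit leaves out case 9 and control 10, the libraries highest and lowest in Cd74. The summed level then had a log2 ratio of -0.057. Depth does not limit the members, whose lowest count was 76, but Ifng and RT1-Ha lie near the limit that a count of 0 allows.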
